A study of Rattus norvegicus with 12 samples.

Results

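The 97 circular RNAs (circRNAs) described here were the most variable of the well-counted circRNAs in rat PVN tissue, ranked by how far their levels spread over all 12 libraries whatever the group. They were 97 of the 21914 circRNAs in the table. To choose them, the 1018 circRNAs with at least 20 counts in every library were taken, and the 100 with the highest mean level, all of which were among the 1018, were set aside. The remaining 918 were ranked by the coefficient of variation (CV, the SD over the mean) of their CPM (the count divided by the library's total count and multiplied by 1e+06). The top 100 were kept, and 3 of them were then left out, because 5 named circRNAs were excluded from the description. The spread was therefore what chose them, and it is given as a description with no test.

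A circRNA is a closed RNA loop made by back-splicing, in which the end of an exon is joined to the start of the same or an upstream exon, so that the molecule has no free ends and resists the enzymes that degrade linear RNA from its ends. CircRNAs are abundant in brain, many come from genes of neurons, and some bind miRNAs or proteins, while most have no known role. The PVN of the hypothalamus holds neurons that release corticotropin-releasing hormone, oxytocin and vasopressin and takes part in the response to stress. A circRNA read is counted at the back-splice junction, and its level depends both on how much of the host gene is transcribed and on how often the transcript is back-spliced.

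To study surgical stress and electroacupuncture, the study took PVN from male Sprague-Dawley rats, bought at 7 weeks of age, in 4 groups of 3 libraries. NC rats were normal controls without surgery. HT rats had part of the liver removed under isoflurane, and HT+EA rats had the same operation with electroacupuncture at ST 36 and SP 6 before and after it. HT+SEA rats had the same operation with needles placed at these points without current. NC and HT rats were restrained for as long as the needled rats, and tissue was taken 24 h after the last treatment. The labels give the tissue as brain, and the study's text places the PVN in the hypothalamus. The table names its circRNAs by running identifiers, with no coordinates, strand, host gene or sequence, so the tissue could not be checked against marker genes, and none of the 97 was placed in the genome or given a function here. The study's methods state that brain samples came from different animals of the same batch and were collected together. Nothing in the labels says which animals gave which library or whether tissue was pooled, so p-values measure the spread between these libraries.

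Total counts ran from 134903 in HT replicate 3 to 360524 in HT+EA replicate 2. These are reads on called circRNAs, not the whole sequencing depth. The 97 circRNAs held 2.39% to 3.53% of the counts of a library. In bulk tissue, fewer cells of a type and less of a circRNA per cell cannot be told apart.

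The 97 circRNAs were of moderate abundance. Their mean CPM lay between 138 and 944, and its median of 255 compared with 313 in the other 818 well-counted circRNAs. Their CV lay between 28.6% and 68.6% (median 32.4%), and that of the other 818 between 7.05% and 28.4% (median 18.7%). The highest library of each of the 97 was 2.19 to 6.82 times its lowest, with a median of 2.99. In the other 818 the median was 1.88. All 97 differed over 2-fold between their highest and lowest library, 48 over 3-fold and 12 over 4-fold.

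The limit cut through a continuous range of values. The last circRNAs inside it were novel_circ_0025916, novel_circ_0023741 and novel_circ_0010827, each with a CV of 28.6%. The first outside were novel_circ_0025825 and novel_circ_0004708, both with a CV of 28.4%.

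Counting error made up only part of this spread. For each circRNA the share of the squared CV that Poisson counting alone would give, at its mean level and these library totals, ran from 2.99% to 38.1% in the 97, with a median of 18.3%. It was 43.3% at the median of the other 818. Choosing by CV itself favours a low share, so this difference is a description. The lowest count of a member in any library was 20 to 116, and 53 of the 97 had a library with 20 to 29 counts. The biological coefficient of variation that edgeR fitted within groups had a median of 30.6% in the 97, 19.2% in the other 818 and 29.4% in all 4838 circRNAs tested. At the median the 97 thus varied within groups more than the other well-counted circRNAs and about as much as all tested circRNAs, most of which were fainter. The choice by CV favours a high spread within groups as well.

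**Figure D1:**
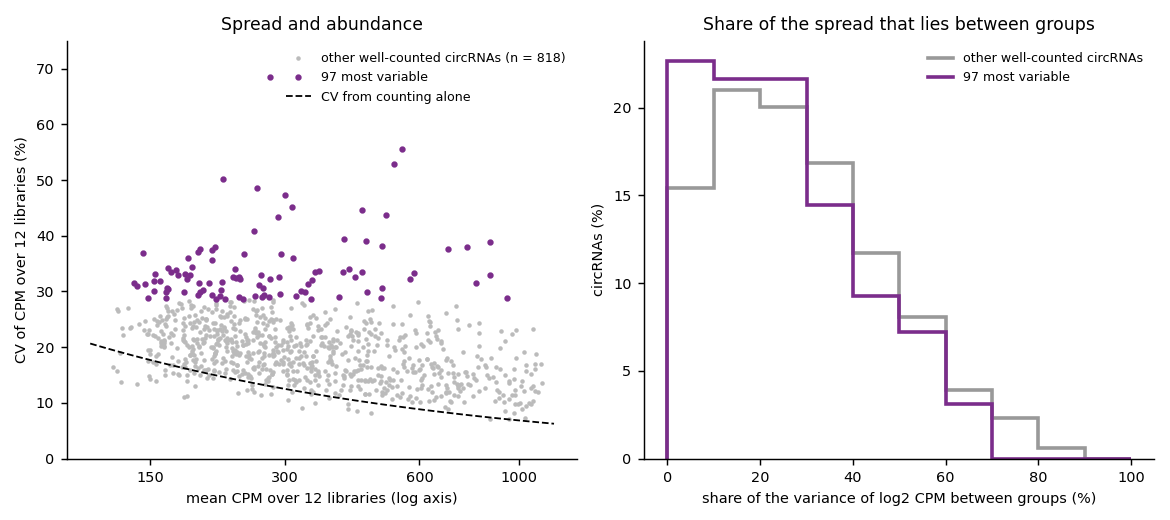
Left, the CV of CPM over 12 libraries (%) against mean CPM (log axis) for the 97 most variable circRNAs (purple) and the other 818 well-counted circRNAs (grey), with the CV that counting alone would give as a dashed line. Right, the share of the variance of log2 CPM that lies between the 4 groups (%), as the percentage of circRNAs in each interval of it. The 97 circRNAs, chosen by CV, lie above the dashed line at every abundance. Their group shares, with a median of 22.5%, are no higher than those of the other circRNAs, with a median of 25.9%.

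Most of the spread lay between libraries of the same group. The group share, which is the part of the variance of log2 CPM between the means of the 4 groups, had a median of 22.5% in the 97, 25.9% in the other 818 and 24.9% in all tested circRNAs. With 4 groups of 3 libraries and no difference between groups, a share of 27.3% would be expected on average. These medians were all below that value. The share reached 50% in 10 of the 97 (10.3%), against 14.9% of the other 818 and 10.7% of all tested circRNAs. It reached 75% in none of the 97, against 1.34% of the other 818 and 0.806% of all tested, and its highest value was 65.8% in novel_circ_0009702.

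NC was the group whose own libraries differed most. The median CV within a group of 3 libraries was 39.4% in NC, 30.5% in HT, 29.5% in HT+EA and 24.03% in HT+SEA. The same order held in the other 818, with medians of 17.5%, 16.6%, 14.1% and 13.6%. NC was the most spread group for 49 of the 97, HT for 24, HT+EA for 14 and HT+SEA for 10.

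The most variable was novel_circ_0040150, with a CV of 68.6%. Its CPM was 120, 134 and 204 in NC, 474, 174 and 497 in HT, 145, 147 and 661 in HT+EA, and 477, 146 and 161 in HT+SEA. HT replicates 1 and 3, HT+EA replicate 3 and HT+SEA replicate 1 stood at 474 or more, and the other 8 at 204 or less, with no library in the 2.32-fold step between them. The high level thus occurred in some libraries of each operated group and in no NC library. The groups overlapped, and in edgeR HT against NC gave a log2 fold change of 1.25 (SE 0.64) with an unadjusted p of 0.0750 and an adjusted p of 0.997.

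The circRNA with the next running number but one, novel_circ_0040148, had its 4 highest levels in the same 4 libraries. Its CPM was 200, 169 and 166 in NC, 289, 202 and 385 in HT, 205, 247 and 485 in HT+EA, and 360, 152 and 202 in HT+SEA. The correlation of the log2 CPM of the pair was 0.890 over the 12 libraries. Among the 97, 2 further pairs had identifiers at most 2 apart, namely novel_circ_0000650 and novel_circ_0000651 with a correlation of 0.793, and novel_circ_0017505 and novel_circ_0017506 with 0.642. Over the 918 well-counted circRNAs, 77 pairs of this kind had a median correlation of 0.194. Whether identifiers follow the genome is not stated, so whether these pairs share a host gene is not known here.

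The widest range belonged to novel_circ_0022863, 6.82-fold with a CV of 55.6%. Its CPM was 257, 269 and 689 in NC, 1084, 347 and 645 in HT, 797, 197 and 661 in HT+EA, and 159, 529 and 934 in HT+SEA. Every group held at least 1 library at 347 or less and 1 at 645 or more, and its group share was 10.3%. Next, novel_circ_0020665 had 257, 651 and 189 CPM in NC, 1051, 468 and 689 in HT, 373, 447 and 310 in HT+EA, and 341, 524 and 1006 in HT+SEA. Its 2 highest libraries were 1 of HT and 1 of HT+SEA, and its lowest was NC replicate 3.

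Some of the strongest spreads came from 1 or 2 libraries. The CPM of novel_circ_0023299 was 637 in HT+SEA replicate 2 and 178 to 324 in the other 11 libraries. That of novel_circ_0015950 was 701 in NC replicate 1 and 159 to 391 in the others. That of novel_circ_0013429 was 127 in NC replicate 3 and 156 in HT+SEA replicate 3, and 365 to 807 in the other 10. In novel_circ_0010912 the high libraries were NC replicates 1 and 2, at 448 and 421 CPM, while NC replicate 3 was at 119 and the 9 operated libraries at 111 to 233.

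The other 3 of the 10 highest CVs also split at least some of the groups. The CPM of novel_circ_0000997 was 610, 457, 434 and 431 in 1 library of each group and 185 to 233 in the other 8, which left a group share of 0.734%, the lowest of the 97. The CPM of novel_circ_0008622 was 175 to 213 in HT replicate 1 and HT+SEA replicates 2 and 3, and 337 to 764 in the other 9. All NC and all HT+EA libraries were among these 9. The CPM of novel_circ_0017506 ran from 155 to 541 with libraries of every group on both sides of 280.

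**Figure D2:**
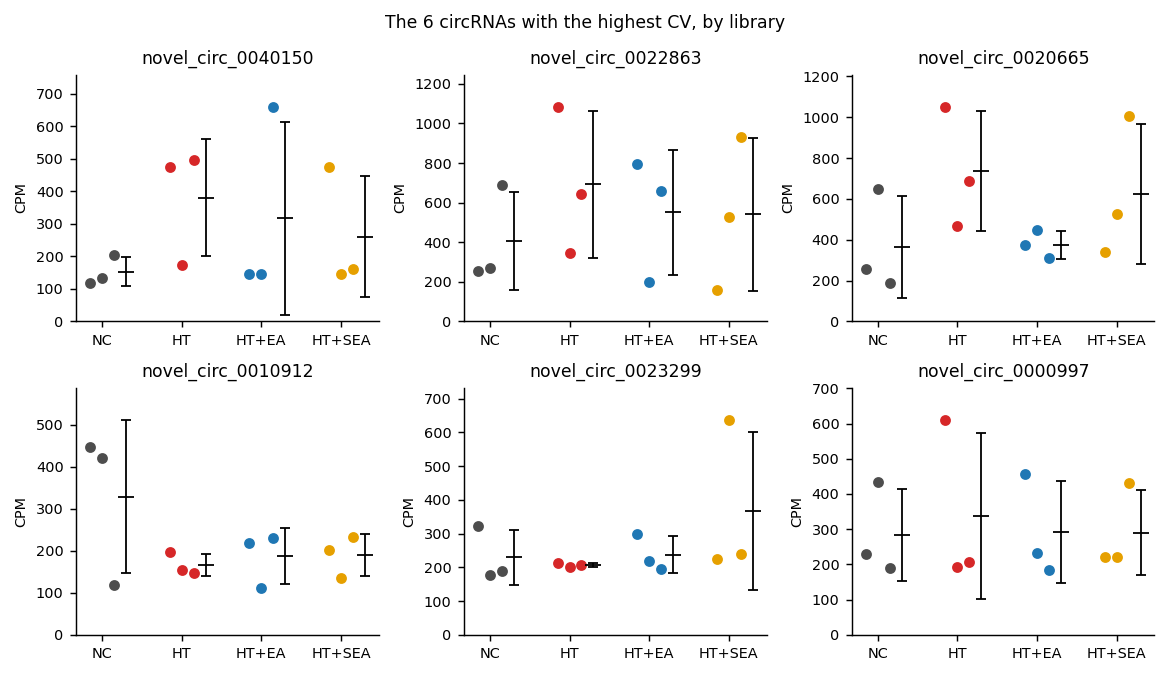
CPM in each library (points, 3 per group) of the 6 circRNAs with the highest CV, with the mean and SD of each group as a bar beside its points. In novel_circ_0040150, 4 libraries of the 3 operated groups stand at 474 to 661 and the other 8 at 120 to 204, and in novel_circ_0000997, 1 library of each group stands at 431 or more.

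In 20 of the 97 the largest step between neighbouring libraries in order of CPM exceeded 1.5-fold, and in 9 of these at least 2 libraries lay on each side of it. The highest library stood over 1.5-fold above the second in 4 circRNAs, and the lowest over 1.5-fold below the second lowest in 7. Without its highest library 52 of the 97 still had a CV over the limit, and without its lowest 54 did, but only 36 did in both cases.

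The extremes were unevenly spread over the libraries. NC replicate 3 was the lowest library for 32 of the 97 (33.0%), against 17.1% of the other 818, and HT+EA replicate 2 for 14 (14.4%, against 7.82%). HT replicates 1 and 3 were each the highest for 18 (18.6%), against 12.5% and 15.2% of the other 818, and NC replicate 3 for 10 (10.3%, against 14.5%). NC replicate 3 was thus the lowest library for some circRNAs and the highest for others.

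The summed share of counts followed the same libraries. It was 2.39% in NC replicate 3, 2.55% in HT+EA replicate 2 and 2.77% in HT replicate 2, 2.99% to 3.16% in the other NC, HT+EA and HT+SEA libraries, 3.35% in HT replicate 1 and 3.53% in HT replicate 3. By group it was 2.80% ± 0.355 (SD, n = 3) in NC, 3.22% ± 0.399 in HT, 2.84% ± 0.253 in HT+EA and 3.09% ± 0.0585 in HT+SEA, and the HT range took in all 3 HT+SEA libraries. Each HT+SEA library lay above all NC and all HT+EA libraries. HT+EA replicate 2 and NC replicate 3 had the highest total counts (360524 and 259654), and HT replicate 3 and HT+SEA replicate 2 the lowest (134903 and 177533). The part of the library total in these levels was not tested.

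The minimum of 20 counts bears on this directly, because it asks for 148 CPM in the smallest library, HT replicate 3, and for only 55.5 CPM in the largest, HT+EA replicate 2. A circRNA could therefore be chosen with a low level in HT+EA replicate 2 but not with the same low level in HT replicate 3. Of the 97, 55 fell under 148 CPM in some library and 42 in none. When 148 CPM was required in every library, an alternative chosen after seeing the data, 655 circRNAs could be chosen from and 42 of the 97 chosen circRNAs were the same. In that choice NC replicate 3 was the lowest library for 28, and HT replicates 1 and 3 the highest for 22 and 18.

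**Figure D3:**
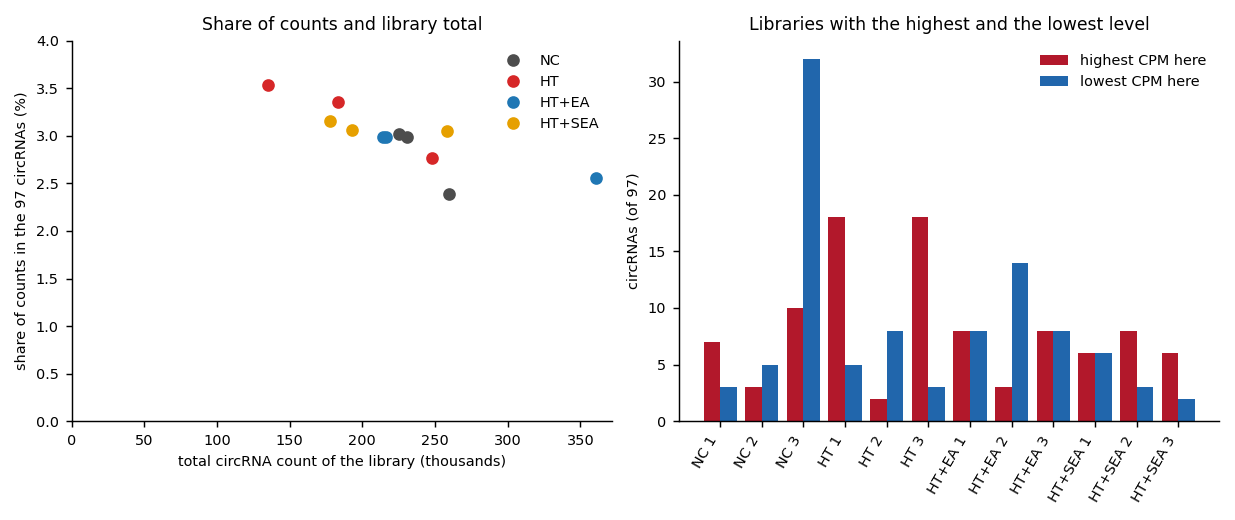
Left, the share of each library's counts held by the 97 circRNAs (%) against its total circRNA count (axis in units of 1000), coloured by group. Right, the number of the 97 circRNAs with their highest (red) and lowest (blue) CPM in each library. NC replicate 3 has the lowest share, 2.39%, and the lowest CPM of 32 circRNAs, and HT replicate 3, the smallest library, has the highest share, 3.53%.

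The 97 circRNAs moved together more often than other well-counted circRNAs, as a description over the same 12 libraries, in which all pairs share totals. The median correlation of log2 CPM was 0.112 over their 4656 pairs and 0.00291 over the pairs of the other 818. A correlation of 0.5 or more was found in 15.2% of their pairs and in 6.82% of the others. With the group means taken out the shares were 18.9% and 10.4%, so the common movement was not only between groups. The first principal component held 29.8% of their variance, against 20.9% in the other 818, and its most extreme libraries were NC replicate 3 and HT+EA replicate 2 on one side and HT replicates 1 and 3 on the other. By total count these ranked 2, 1, 10 and 12 of the 12 libraries. Counting error made up a median of 18.3% of the squared CV in the 97 and 43.3% in the other 818. The part of counting error, library totals and the minimum count in the common movement was not tested.

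Grouping by correlation (average linkage, a mean correlation of 0.5 or more) gave 31 sets. Of these, 11 were single circRNAs, 15 held 2 or 3, and 5 held 4 or more, with 49 of the 97 in these 5. The sets were made from these values, so their profiles are descriptions.

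The biggest set held 27 circRNAs with a median pairwise correlation of 0.646. All 27 were below their own mean in NC replicate 3, by 0.90 on average on the log2 scale, and all 27 in HT+EA replicate 2, by 0.56. In HT replicate 1, 26 of the 27 were above it, by 0.56 on average, and in HT replicate 3, 24 were, by 0.36. NC replicates 1 and 2 were above it on average, by 0.30 and 0.16, so the group with the lowest library also held libraries on the high side. The group share of the set's mean profile was 23.0%. Among the other 818 circRNAs, 146 (17.8%) correlated with this profile at 0.5 or more.

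Its most abundant member, and the most abundant of the 97, was novel_circ_0011807. Its CPM was 736, 1093 and 435 in NC, 1493, 1054 and 1193 in HT, 900, 696 and 772 in HT+EA, and 926, 1093 and 934 in HT+SEA. All HT libraries were above all HT+EA libraries, while HT and NC overlapped. The next, novel_circ_0000650, ran from 323 CPM in HT replicate 2 to 1098 in HT+SEA replicate 2, with 401 in NC replicate 3 and 372 in HT+EA replicate 2.

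In novel_circ_0015474 the lowest level was 231 CPM in NC replicate 3 and the highest 858 in HT+EA replicate 1. In novel_circ_0028644 NC replicate 3 and HT+EA replicate 2 stood at 246 and 239 CPM, and the other 10 libraries at 453 to 786. The closest pair of all, novel_circ_0001557 and novel_circ_0002637, was also in this set, with a correlation of 0.935. Both were highest in HT replicate 1, at 512 and 294 CPM, and lowest in NC replicate 3, at 177 and 92.4 CPM.

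The second set held 9 circRNAs with a median pairwise correlation of 0.697 and a different profile. All 9 were above their own mean in HT replicate 3, by 0.79 on average on the log2 scale, and in HT+SEA replicate 2, by 0.44. All 9 were below it in HT+EA replicate 2, by 0.60, and in HT replicate 1, by 0.27. On average the 3 HT+EA libraries were all below the mean (-0.20 to -0.60) and the 3 HT+SEA libraries all above it. The NC libraries were all below it as well (-0.01 to -0.19), and the HT libraries lay on both sides. The group share of the mean profile was 51.8%. HT replicate 1, high in the first set, was thus low in this one, and the highest library here was the smallest of the 12.

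Its most abundant members were novel_circ_0005094, novel_circ_0009702, novel_circ_0031375 and novel_circ_0015967. The CPM of novel_circ_0005094 was 545, 395 and 293 in NC, 436, 549 and 719 in HT, 340, 266 and 379 in HT+EA, and 519, 625 and 431 in HT+SEA. Every HT+EA library was below every HT and every HT+SEA library. The set also held the least abundant of the 97, novel_circ_0015877, with 88.7 to 245 CPM and 20 to 39 counts.

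**Figure D4:**
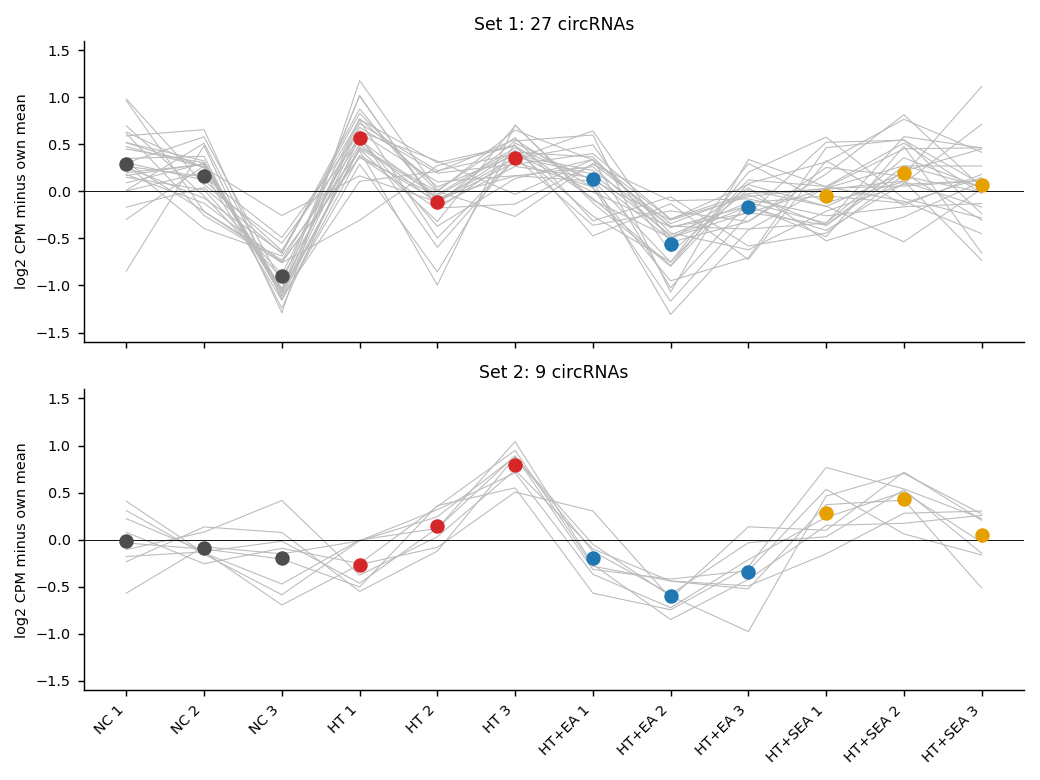
Log2 CPM minus the circRNA's own mean in each library, for the 27 circRNAs of the biggest set and the 9 of the second (grey lines), with the mean of the set as a point coloured by group (NC grey, HT red, HT+EA blue, HT+SEA yellow). The first set falls lowest in NC replicate 3, at -0.90, and the second stands highest in HT replicate 3, at 0.79, and lowest in HT+EA replicate 2, at -0.60.

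The third set, of 5 circRNAs, was lowest in NC replicate 3 (-0.96 on the log2 scale) and highest in HT+EA replicate 3 (0.59). Its most abundant member, novel_circ_0019078, ran from 350 CPM in NC replicate 3 to 1498 in HT replicate 1. The others named by abundance, novel_circ_0021802, novel_circ_0010798 and novel_circ_0039953, had 108, 116 and 80.9 CPM in NC replicate 3, their lowest library in each case.

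Of the sets of 4, one was low in HT replicate 1 (-0.98) and NC replicate 1 (-0.67) and above its mean in all HT+SEA libraries. The other was high in NC replicate 3 (0.74) and low in NC replicate 2 (-0.58), with a group share of its mean profile of 1.63%. NC replicate 3 was therefore low for some of the 97 and high for others. The strongest inverse pair was novel_circ_0015072 with novel_circ_0000651, with a correlation of -0.926. The former was highest in NC replicate 3, at 778 CPM, where the latter, at 166 CPM, was at its lowest with HT+EA replicate 2.

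**Figure D5:**
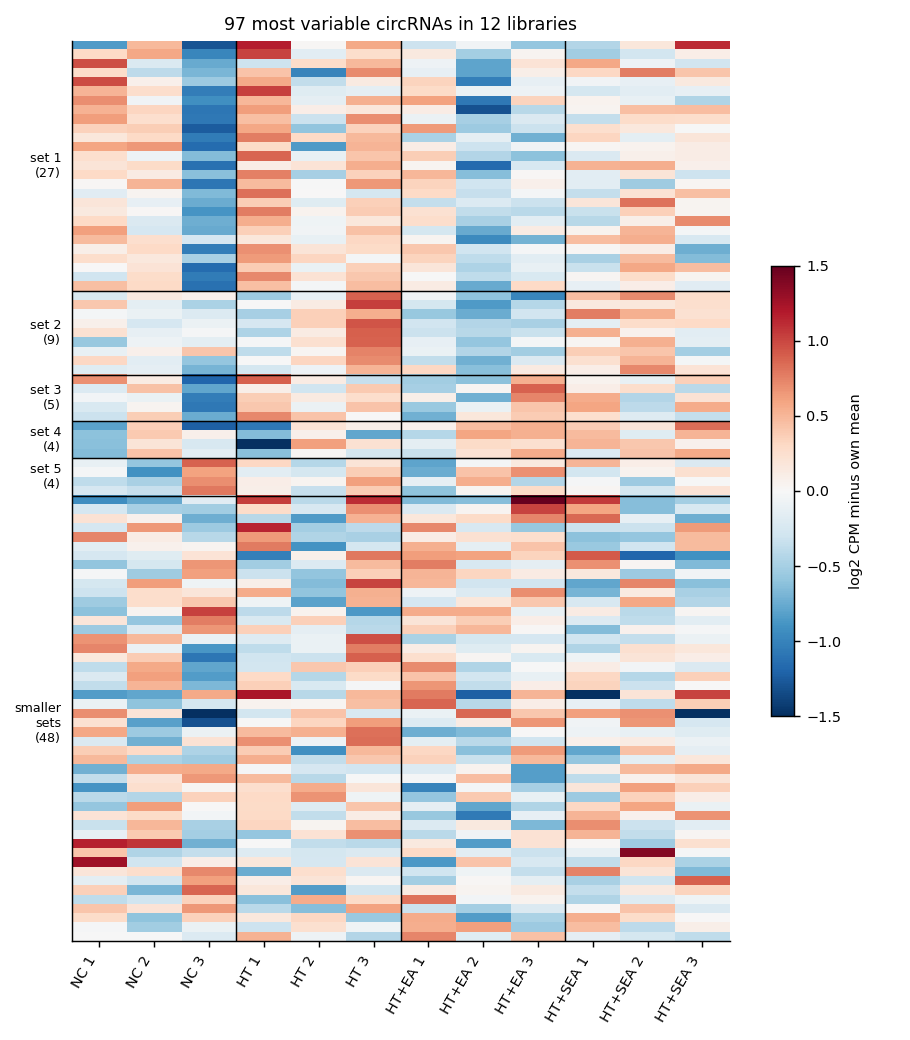
Log2 CPM minus the circRNA's own mean for the 97 circRNAs (rows) in 12 libraries (columns, parted by group), with rows ordered by correlation set and the number of circRNAs of each set in brackets. The colour scale ends at 1.5 in either direction. The 27 circRNAs of set 1 are below their mean in NC replicate 3 and in HT+EA replicate 2, and no group is one colour across its 3 libraries over the 97.

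The 4 groups were then compared circRNA by circRNA, since the choice used no group label. A difference between groups adds to the overall spread, so counts of members called are set beside the share of all tested circRNAs and read no further. In a fit of all 4838 tested circRNAs by edgeR's quasi-likelihood test, none of the 97 passed an adjusted p below 0.05 in any of 6 contrasts or in the test of any difference, and no tested circRNA did. The smallest adjusted p of the 97 was 0.997 in edgeR, and DESeq2 gave 0 adjusted calls among them as well. At an unadjusted p below 0.05, edgeR called 20 of the 97 (20.6%) in at least 1 contrast, against 13.4% of all tested circRNAs, and the other 77 in none. In the test of any difference 4 of the 97 were called by edgeR, where 2.48% of all tested circRNAs were, and 5 by DESeq2. The share of all tested circRNAs that DESeq2 called is not given here.

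In HT against NC, which asks what surgery changed, edgeR called 3 of the 97 before adjustment, of which 2 were higher and 1 was lower in HT, against 3.41% of all tested circRNAs (1.26% higher and 2.15% lower). A share of 3.09% is near that background. The smallest p of the higher ones was in novel_circ_0011807, whose CPM was 755 ± 329 (SD, n = 3) in NC and 1247 ± 224 in HT. Its edgeR log2 fold change was 0.69 (SE 0.26), with an unadjusted p of 0.0186 and an adjusted p of 0.997. The lower one was novel_circ_0010912, with 329 ± 182 CPM in NC and 166 ± 26.3 in HT, a log2 fold change of -1.01 (SE 0.44), an unadjusted edgeR p of 0.0385 and an adjusted p of 0.997. In both circRNAs the groups overlapped, and NC replicate 3 was the lowest NC library. Without NC replicate 3 or HT replicate 1 the unadjusted edgeR p of novel_circ_0011807 was 0.0623 and 0.0854, and without both NC replicate 3 and HT+EA replicate 2 it was 0.0669. That of novel_circ_0010912 was 0.151 and 0.142 without NC replicate 1 or 2, 0.0865 and 0.0896 without HT replicate 2 or 3, and 0.0521 with the replicate number as a block. The groups did not overlap in 5 of the 97, against 9.36% of all tested.

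Over all 97, the median log2 fold change in HT against NC was 0.19, and 65 were above 0. It was -0.02 over all tested circRNAs. The median of the 97 was 0.08 without NC replicate 3, 0.10 without HT replicate 3, 0.12 without HT replicate 1 and 0.31 without NC replicate 2.

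In HT+EA against HT, which asks what electroacupuncture changed after surgery, edgeR called 9 of the 97 (9.28%) at an unadjusted p below 0.05, all lower in HT+EA. Of all tested circRNAs 4.77% were called, 2.58% higher and 2.19% lower. Groups did not overlap in 13 of the 97, again all lower in HT+EA, against 11.3% of all tested, 6.06% lower. HT replicates 1 and 3 were also most often the highest library of the 97, and HT+EA replicate 2 was the lowest for 14. Of the called members, 5 were among the 55 that fell under 148 CPM in some library and 4 among the 42 that did not. With the minimum of 148 CPM in every library, 8 of the 97 circRNAs then chosen were called, 1 higher and 7 lower. The median log2 fold change of the 97 was -0.20, with 69 below 0, against 0.02 over all tested circRNAs. It was -0.12 without HT replicate 1, HT replicate 3 or HT+EA replicate 2, and -0.35 without HT replicate 2. The part of the minimum count in this direction was not tested further.

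The smallest p was in novel_circ_0007733. Its CPM was 257, 117 and 162 in NC, 240, 250 and 304 in HT, 103, 108 and 171 in HT+EA, and 163, 158 and 150 in HT+SEA. All HT libraries were above all HT+EA and HT+SEA libraries, while NC spanned the range. The edgeR log2 fold change was -1.03 (SE 0.30) in HT+EA against HT, with an unadjusted p of 0.00454 and an adjusted p of 0.999. It stayed under an unadjusted 0.05 in all 17 alternative settings run for it, from 0.00236 to 0.0252. In the test of any difference its unadjusted edgeR p was 0.0258, and 0.0653, 0.0894, 0.0654 and 0.0694 without HT replicate 2, HT replicate 3, HT+EA replicate 1 or HT+EA replicate 2, and 0.0805 without both NC replicate 3 and HT+EA replicate 2.

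The remaining 8 were novel_circ_0032461, novel_circ_0005094, novel_circ_0035112 and novel_circ_0009702 of the second set, novel_circ_0040926 and novel_circ_0011807 of the first, and novel_circ_0014956 and novel_circ_0030155. Their log2 fold changes lay between -0.92 and -0.63. No member was called higher in HT+EA. The smallest unadjusted edgeR p in that direction was 0.0629, in novel_circ_0028502, with a log2 fold change of 0.72 (SE 0.35) and CPM of 267, 444 and 245 in HT and 312, 641 and 610 in HT+EA.

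In HT+SEA against HT, which shares the HT libraries with both comparisons above, edgeR called 1 of the 97, lower in HT+SEA, against 3.29% of all tested circRNAs (1.86% higher and 1.43% lower). This was novel_circ_0007733, with a log2 fold change of -0.73 (SE 0.30), an unadjusted p of 0.0301 and an adjusted p of 0.999. The call was lost without HT replicate 2 or 3 or any 1 HT+SEA library, at unadjusted edgeR p of 0.0539, 0.0782, 0.0556, 0.0645 and 0.0722, and with no filter on low counts, at 0.0519. Groups did not overlap in 5 of the 97, against 9.53% of all tested, and the median log2 fold change of the 97 was -0.08 beside 0.02 over all tested. Without HT replicate 3 that median was 0.02, without HT replicate 1 it was under 0.005 in size, and without HT replicate 2 it was -0.17, so its direction depended on single HT libraries. The highest level of novel_circ_0023299, in HT+SEA replicate 2, gave this circRNA a log2 fold change of 0.82 (SE 0.38), and its unadjusted edgeR p was 0.0517.

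In HT+EA against HT+SEA, which sets current against needles alone, edgeR called 10 of the 97 (10.3%) before adjustment, of which 9 were lower and 1 was higher in HT+EA. Of all tested circRNAs 3.89% were called, 1.74% higher and 2.15% lower. The median log2 fold change of the 97 was -0.06, against a value under 0.005 in size over all tested. It was -0.13 and -0.14 without HT+EA replicate 1 or 3, -0.12 without HT+SEA replicate 2, and -0.02 with no filter on low counts. Groups did not overlap in 18 of the 97, of which 15 were lower in HT+EA, against 11.8% and 6.16% of all tested. Of the 55 members that fell under 148 CPM in some library, 5 were called, all of them lower in HT+EA. Of the 42 that did not, 5 were called, 4 lower and 1 higher. With the minimum of 148 CPM in every library, 7 of the 97 circRNAs then chosen were called, 2 higher and 5 lower. This comparison shares the HT+EA libraries with HT+EA against HT, so calls in both are not independent.

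The smallest p of all contrasts was in novel_circ_0009702. Its CPM was 386, 369 and 343 in NC, 278, 509 and 578 in HT, 266, 236 and 323 in HT+EA, and 674, 575 and 462 in HT+SEA. All HT+SEA libraries were above all NC and all HT+EA libraries, and every HT+EA library was below every NC library, with HT spread over both. The edgeR log2 fold change in HT+EA against HT+SEA was -1.05 (SE 0.26), with an unadjusted p of 0.00130 and an adjusted p of 0.9998. In the 17 alternative settings the unadjusted p ran from 0.000152 to 0.00888. In the test of any difference its unadjusted edgeR p was 0.00868, under 0.05 in all 17 settings.

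The next was novel_circ_0023813, with 168, 178 and 142 CPM in NC, 180, 113 and 156 in HT, 97.9, 69.3 and 134 in HT+EA, and 209, 152 and 233 in HT+SEA. All HT+EA libraries were below all NC and all HT+SEA libraries. Its log2 fold change in HT+EA against HT+SEA was -0.99 (SE 0.30), with an unadjusted edgeR p of 0.00549. Its level in HT+EA rested on 21 to 29 counts a library. In the test of any difference its unadjusted edgeR p was 0.0363, and 0.0521 to 0.147 without NC replicate 1 or 2, HT+EA replicate 1 or 2, or HT+SEA replicate 1 or 3. DESeq2 gave 0.0549, and edgeR with no filter on low counts 0.0964. The one circRNA called higher in HT+EA was novel_circ_0023741, a member at the very limit of the choice, with a log2 fold change of 0.64 (SE 0.29) and an unadjusted edgeR p of 0.0480. Its CPM of 340, 180 and 277 in HT+EA overlapped the 186, 169 and 156 in HT+SEA. The call was lost in 11 of the 17 settings, with an unadjusted p of 0.0665 in DESeq2 and of 0.192 in edgeR without HT+EA replicate 1.

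HT+EA and HT+SEA were also set against NC, which they share. In HT+EA against NC edgeR called 4 of the 97, all lower in HT+EA, against 2.48% of all tested circRNAs, 1.12% higher and 1.36% lower. The smallest p was in novel_circ_0039020, with 198 ± 31.1 CPM (SD, n = 3) in NC and 115 ± 11.2 in HT+EA, a log2 fold change of -0.80 (SE 0.32) and an unadjusted edgeR p of 0.0248. All NC libraries were above all HT+EA libraries. Without NC replicate 3 or HT+EA replicate 2 its unadjusted edgeR p was 0.0805 and 0.0689, and without both it was 0.160. All 4 called members fell under 148 CPM in some library. With the minimum of 148 CPM in every library, 1 of the 97 circRNAs then chosen was called, and it was higher in HT+EA. Groups did not overlap in 9 of the 97 first chosen, against 10% of all tested. The median log2 fold change of these 97 was 0.01 beside a value under 0.005 in size over all tested. That median had no stable direction, at -0.20 without NC replicate 3, -0.14 without HT+EA replicate 1, -0.03 without HT+EA replicate 3 and 0.04 without NC replicate 1, NC replicate 2 or HT+EA replicate 2.

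In the same contrast novel_circ_0040148, the partner of the most variable circRNA, had the smallest unadjusted edgeR p among those higher in HT+EA, at 0.0560, with a log2 fold change of 0.80 (SE 0.38). Its HT+EA libraries, at 205, 247 and 485 CPM, were all above its NC libraries, at 166 to 200 CPM. The nearest of these, at 205 and 200 CPM, held 44 and 45 counts, and the highest was HT+EA replicate 3. With 1 library left out the log2 fold change ran from 0.34 to 1.01.

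In HT+SEA against NC edgeR called 3 of the 97, all higher in HT+SEA, against 2.96% of all tested circRNAs, 1.26% higher and 1.69% lower. All of these called members were at 148 CPM or more in every library. The smallest p was again in novel_circ_0009702, with 366 ± 21.6 CPM (SD, n = 3) in NC and 570 ± 106 in HT+SEA, a log2 fold change of 0.63 (SE 0.25) and an unadjusted edgeR p of 0.0277. It was 0.0668 without NC replicate 3, 0.0722 without both that library and HT+EA replicate 2, and 0.125 and 0.0507 without replicate 1 or 2 of HT+SEA. Among those lower in HT+SEA, novel_circ_0027170 came first with an unadjusted edgeR p of 0.0551 and a log2 fold change of -0.66 (SE 0.31). Groups did not overlap in 4 of the 97, against 9.78% of all tested, and the median log2 fold change of the 97 was 0.10 beside a value under 0.005 in size over all tested. It was 0.02 and 0.05 without replicate 1 or 2 of HT+SEA, and 0.16 without NC replicate 2.

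A single member had 1 group apart from all 9 other libraries, where 3.68% of all tested circRNAs did. It was novel_circ_0035112, with 145, 130 and 125 CPM in HT+EA and 147 to 341 in the other 9 libraries. The gap between 145 and 147 CPM rested on 31 and 27 counts and was within counting error. Its CPM was 186, 147 and 166 in NC, 147, 226 and 341 in HT and 159, 214 and 218 in HT+SEA.

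Of the 5 smallest p-values in the test of any difference, 3 belonged to the second set, namely novel_circ_0009702, novel_circ_0005094 and novel_circ_0032461. The unadjusted edgeR p of novel_circ_0005094 was 0.0423, and 0.0519 to 0.144 without NC replicate 2, HT replicate 2 or 3, any 1 HT+EA library, or HT+SEA replicate 1 or 2, and 0.0756 with the replicate number as a block. That of novel_circ_0032461 was 0.0581, with 306, 208 and 166 CPM in NC, 229, 250 and 474 in HT, 191, 128 and 171 in HT+EA, and 256, 259 and 275 in HT+SEA. In novel_circ_0032461 the HT+SEA libraries lay within 20 CPM of each other, above all HT+EA libraries, while NC and HT each spread widely.

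Of the 44 circRNAs that the study placed as nodes of its PVN network, 4 were among the 97. The study chose that list on these libraries, so it is not independent evidence of a direction. They were novel_circ_0040150, novel_circ_0020665, novel_circ_0015072 and novel_circ_0030155, of which the first and second were also among the 3 with the highest CV. Only novel_circ_0030155 was called in any contrast, lower in HT+EA than in HT (log2 fold change -0.76, SE 0.31, unadjusted edgeR p 0.0316) and than in HT+SEA (-0.81, SE 0.31, unadjusted edgeR p 0.0221). Its CPM was 173, 382 and 327 in NC, 381, 472 and 363 in HT, 159, 316 and 226 in HT+EA, and 364, 490 and 410 in HT+SEA.

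All HT and HT+SEA libraries of novel_circ_0030155 were above all its HT+EA libraries, and NC replicate 1 lay between its HT+EA libraries. For novel_circ_0020665, novel_circ_0015072 and novel_circ_0040150 the unadjusted edgeR p of any difference was 0.134, 0.243 and 0.303. The CPM of novel_circ_0015072 was 248, 390 and 778 in NC, 289, 396 and 208 in HT, 560, 563 and 351 in HT+EA, and 415, 287 and 389 in HT+SEA, with the 4 groups overlapping.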

How the data were processed

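PVN circRNAs were measured in 12 rat libraries. From total RNA the authors made libraries that keep the strand and ran them on Illumina HiSeq instruments. The deposited values are raw read counts per circRNA and library, neither normalised nor pooled by the authors. The circRNA caller is not given in the sources used here, and the submitters' processing notes name HISAT2 and featureCounts and a human assembly, while the study's methods name a rat one, so no coordinates were used. Counts of 1 do not occur, and the smallest count above 0 is 2. Another 12 columns, of TPM, were left unused, since several carry names that match no sample label.

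Groups came from the sample labels. CPM was the count divided by the library's total (134903 to 360524) times 1e+06. Group shares and Pearson correlations used log2((count + 0.5)/(total + 1) × 1e+06). Counting shares and totals cover counting error only, since reads carry no molecular identifiers. Counts of all 12 libraries were fitted in 1 model of 4 groups with edgeR 4.0.16 (R 4.3.3; glmQLFit and glmQLFTest, TMM, filterByExpr), which kept 4838 circRNAs and all 97 members. Tests were two-sided and p-values were adjusted by Benjamini-Hochberg over all 4838. The study used p below 0.05 with DESeq2, and whether it was adjusted is not stated, so unadjusted calls are also counted. Fits were tested on simulated data. Alternatives were DESeq2 1.42.0, other scaling, filters, minimum counts and CPM for log2 CPM, each library left out, and replicate number as a block.

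The members and lists were chosen with earlier results of these data known. Members named are the 10 with the highest CV, those with the smallest p in each direction of each contrast and the 5 in any difference, those with 1 group apart from the other 9 libraries, those at the limit, the most and least abundant, the pairs with the highest and lowest correlation, up to 4 of each of the 3 biggest sets, and the study's node circRNAs. The other called members, novel_circ_0014956 and novel_circ_0040926, were named after their values were seen.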

Additional observations from a re-analysis of the deposited data

How the results depend on the processing

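The circRNAs named for the smallest p in a direction of a contrast kept that direction there under every alternative run. Other fold changes of single circRNAs were not followed through the alternatives. The median log2 fold change of the 97 did not keep its direction in 2 contrasts. It ranged from -0.171 to 0.0162 in HT+SEA against HT and from -0.205 to 0.0446 in HT+EA against NC with 1 library left out, and was -0.0942 in the latter without both NC replicate 3 and HT+EA replicate 2. With no filter on low counts the called members numbered 9 in HT against NC, 16 in HT+EA against HT, 5 in HT+SEA against HT, 16 in HT+EA against HT+SEA, 11 in HT+EA against NC, 9 in HT+SEA against NC and 16 in any difference, with 2 in any difference after adjustment (edgeR). Of all 21914 circRNAs that fit called 2.83%, 3.02%, 2.72%, 2.44%, 2.14%, 2.41% and 2.31% in the same order, and 0.319% in any difference after adjustment. Only 4838 of the 21914 passed the filter, so most of this base was fainter than the 97. The share called among well-counted circRNAs in that fit is not given here. Requiring 148 CPM in every library gave 1 in HT against NC, 2 in HT+SEA against HT, 1 in HT+EA against NC and 6 in HT+SEA against NC, and kept 42 of the 97. A minimum count of 10 kept 20 of the 97 and one of 40 kept 23, so membership depends strongly on the minimum. The median correlation was 0.0881 with TMM scaling and 0.0935 on CPM.

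Leaving out 1 library at a time gave 2 to 8 called members in HT against NC (8 without NC replicate 1, 7 without NC replicate 2 or HT replicate 2, 6 without HT replicate 1), 6 to 14 in HT+EA against HT (14 without HT+EA replicate 1), 1 to 4 in HT+SEA against HT (4 without HT replicate 2, 2 or 3 without any other library but HT replicate 3 and HT+EA replicates 2 and 3), 3 to 11 in HT+EA against HT+SEA (6 without HT+EA replicate 2, 4 without HT+EA replicate 3, 3 without HT+SEA replicate 2), 3 to 10 in HT+EA against NC (10 without NC replicate 3), 1 to 8 in HT+SEA against NC (8 without NC replicate 2, 6 without NC replicate 1, 1 without HT+EA replicate 3) and 2 to 10 in any difference (10 without NC replicate 3, 8 without HT replicate 1, 7 without NC replicate 1, 2 without HT+EA replicate 2), with 0 after adjustment throughout in edgeR. From 72 to 91 of the 97 were chosen again, the median group share was 20.9% to 27.1% and the median correlation 0.0724 to 0.129. Without both NC replicate 3 and HT+EA replicate 2, chosen after seeing the data, HT+SEA against HT had 3, the median group share was 27.4% and the median correlation 0.0657. The group share expected with no difference between groups is itself higher with fewer libraries. The cause of the changes with libraries left out was not tested. The shares of all tested circRNAs called in these fits are not given here. The counts of called members in them are therefore not read as results about the 97.

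The 18 pairs of libraries with the same replicate number correlated between -0.0884 and 0.0850. These pairs alone cannot decide whether the numbers mark a shared batch. With the replicate number as a block, 3 members were called in HT+SEA against HT, and the share of all tested circRNAs called in that fit is not given here. Totals of 134903 to 360524 reads leave 53 of the 97 with 20 to 29 counts in some library, and 3 libraries a group limit every comparison.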
